A study of Thermothelomyces thermophilus with 6 samples.

Results

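The genes described here are 9 genes listed for lytic polysaccharide monooxygenases of auxiliary activity family AA9 and the cellobiose dehydrogenase gene cbdA (Mycth_111388) of the thermophilic filamentous fungus Myceliophthora thermophila ATCC 42464. They were taken by gene ID from the deposited table, which holds 9110 genes, and all 10 were present and passed the filter on low counts. The RefSeq gene table gives a symbol for 1 of them, cbdA. The AA9 genes are therefore given by their IDs, their family is taken from the list, and what distinguishes the individual enzymes is not stated.

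AA9 enzymes are secreted copper enzymes that break cellulose chains by oxidation, in contrast to cellulases, which cleave them by hydrolysis. They need a reductant and oxygen or hydrogen peroxide. Cellobiose dehydrogenase is a secreted flavocytochrome that oxidises cellobiose, a product of cellulose breakdown, and can pass electrons to AA9 enzymes. In many filamentous fungi the genes for cellulose breakdown are kept low on glucose and are induced by cellulose or its breakdown products. None of the media analysed here contained added cellulose.

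All groups came from 1 strain whose mycelium was pregrown on 2% glucose (18 h, 45 °C) and washed before transfer. Mycelium then stayed for 4 h in Vogel's salts with no carbon, with glucose or with 2% starch, and each medium has 2 libraries. The labels give no glucose concentration for the second medium, so form and amount of sugar cannot be told apart. No library from before the transfer was analysed here, and rises and falls are differences between media. The libraries held 17726204 to 23635336 counted reads. Whether replicates were separate cultures is not in the labels, and the p-values therefore reflect a spread between libraries that may be technical. In RNA from whole mycelium, fewer expressing hyphae and less RNA per hypha cannot be told apart.

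The level of a gene is given as RPKM (the read count divided by gene length and by the library total) as deposited, which allows genes to be compared, and the lower library of a medium is given first. Differences between media come from an edgeR fit to the counts of all 8718 genes that passed the filter, with TMM scaling, and a gene is called at an adjusted p under 0.05. The scaling factors were 0.900 and 0.901 on glucose and 1.04 to 1.08 elsewhere, so a ratio of RPKM values is not the fitted fold change.

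Most of these genes were highest on starch and most were lowest on glucose, but these were not all the same genes. In the fit, 6 of the 10 genes were higher on starch than in both other media, as were 18% of all tested genes, and 7 were lower on glucose than in both others, as were 20.6% of tested genes. Both patterns held for cbdA, Mycth_112089, Mycth_46583, Mycth_110651 and Mycth_111088 alone. The exceptions on starch were Mycth_79765, Mycth_85556, Mycth_100518 and Mycth_92668. The 9 AA9 genes summed to 564.7 and 589.1 RPKM in the starch libraries, 222.5 and 228.2 RPKM without carbon, and 63.8 and 65.2 RPKM on glucose. The starch sum was 8.94 times the glucose sum and 2.56 times the sum without carbon. With the TMM factors applied to the sums, those ratios were 7.76 and 2.64. The median AA9 gene stood at 59.3 RPKM on starch, where the median of all 9110 genes was 22.6 RPKM. On glucose it stood at 8.02 RPKM against 19.1 RPKM for all genes, and without carbon at 8.67 against 20.9 RPKM.

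**Figure D1:**
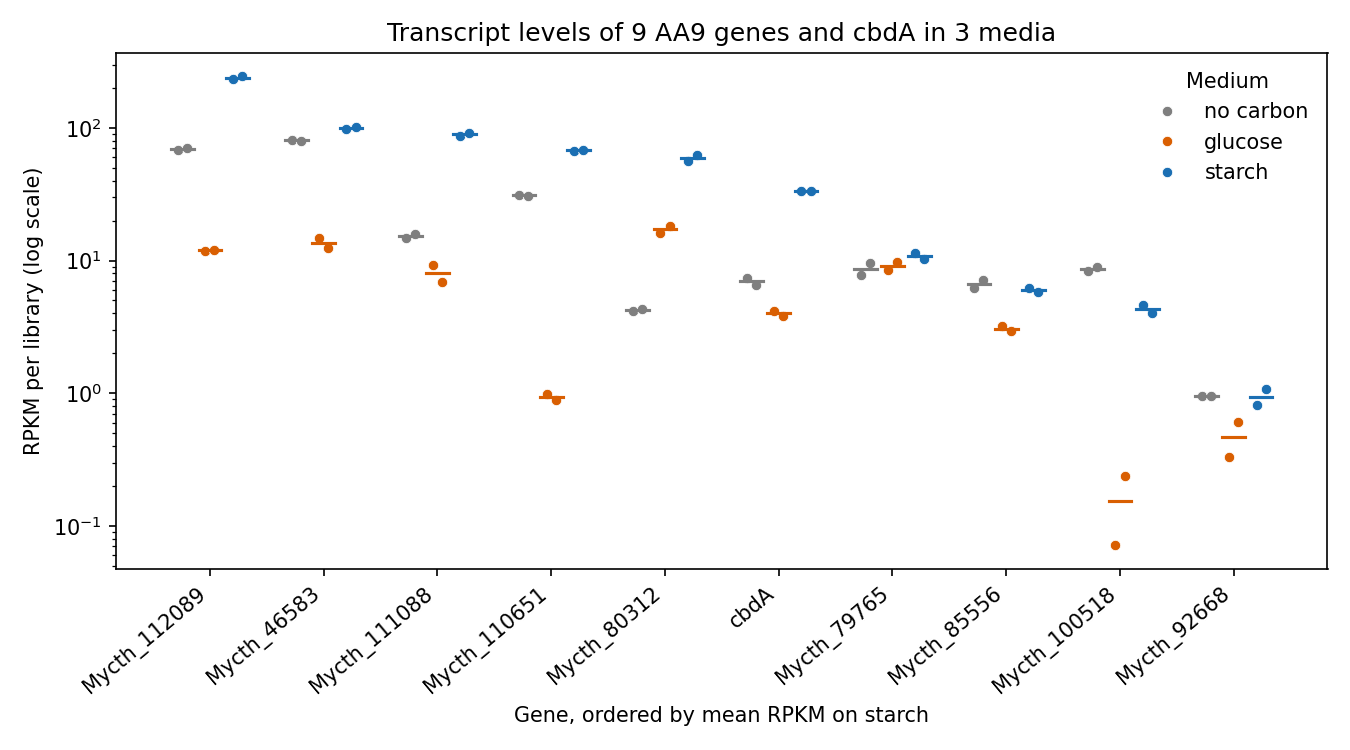
RPKM of each gene in each library on a log axis, with genes ordered by their mean on starch. Points are the 2 libraries of a medium and short lines their mean, and the starch points lie above the glucose points for every gene on this scale. RPKM rests on library totals, which moved the median of all tested genes by 0.205 on the log2 scale toward starch, relative to TMM factors. The smallest relative gap is that of Mycth_79765 (10.3 and 11.4 against 8.48 and 9.78 RPKM), whose starch and glucose libraries overlap after TMM scaling.

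The cellobiose dehydrogenase gene cbdA had 33.2 and 33.7 RPKM on starch, 6.56 and 7.40 RPKM without carbon and 3.80 and 4.20 RPKM on glucose. The libraries of the 3 media did not overlap. The fitted difference was 7.28-fold between starch and glucose (95% interval 6.59 to 8.05) and 4.91-fold between starch and no carbon (4.49 to 5.38). In rank by RPKM among 9110 genes, cbdA moved from 7145 on glucose and 6679 without carbon to 3536 on starch. Its level equalled 5.72% to 5.89% of the AA9 sum on starch, 5.96% to 6.44% on glucose and 2.88% to 3.33% without carbon. At 2725 bases cbdA is the longest of the 10 gene models, and its lower share without carbon depended on the handling of gene length. From the fitted fold changes, the share was 1.86 times as high on starch and 1.98 times as high on glucose as without carbon. With the trend of counts with gene length removed, those values were 1.17 and 1.25, an alternative chosen after seeing the data. The same removal lowered the log2 fold change of cbdA between starch and no carbon from 2.30 to 1.84, which was still called.

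Of the AA9 genes, Mycth_112089 had the highest level on starch, with 232.2 and 244.3 RPKM. It had 68.0 and 70.6 RPKM without carbon and 11.9 ± 0.137 RPKM on glucose (mean ± SD, n = 2), and the media were well separated. It alone made up 41.1% to 41.5% of the AA9 sum on starch, 30.6% to 31.0% without carbon and 18.2% to 18.9% on glucose. Its rank among all genes rose from 5607 on glucose to 511 on starch. Fitted differences were 17.3-fold for starch over glucose (adjusted p = 1.06e-46, log2 fold change 4.11 with SE 0.055) and 3.54-fold for starch over no carbon (adjusted p = 6.2e-38). Both also passed the test against a 2-fold difference (glmTreat). The SE of 0.055 comes from the F statistic and is smaller than counting error alone would give.

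Mycth_110651 showed the widest separation of starch and glucose among the 10 genes. It had 67.0 and 68.5 RPKM on starch, 30.6 and 31.3 RPKM without carbon, but only 0.887 and 0.993 RPKM on glucose, from 28 and 26 reads. Starch exceeded glucose 62.6-fold (95% interval 54.1 to 72.5, adjusted p = 1.06e-41), the 3rd largest rise among the 8718 tested genes. Starch exceeded no carbon by 2.25-fold (2.09 to 2.43), and glucose lay 27.8-fold below no carbon (23.4 to 33.0). Both intervals against glucose were derived from the F statistic and are narrower than counting error from the few glucose reads would give. On glucose this gene supplied 1.39% to 1.52% of the AA9 sum, compared with 11.6% to 11.9% on starch.

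Mycth_111088 followed the profile of cbdA. It had 87.5 and 91.0 RPKM on starch, 14.8 and 15.9 RPKM without carbon and 6.84 and 9.20 RPKM on glucose. Starch exceeded glucose 9.77-fold (8.82 to 10.8) and no carbon 6.01-fold (5.48 to 6.59). Profiles were compared as the Euclidean distance between log2 CPM values of the 6 libraries, each gene centred on its mean, over 8345 other genes with a mean of at least 1 CPM (the count scaled to the library size). By this measure Mycth_111088 was the member nearest to cbdA (distance 0.514) and the 4th nearest of all genes. The 3 nearer genes were Mycth_68753 (0.296), Mycth_104674 (0.401) and Mycth_2300079 (0.498), none of which has a symbol. For Mycth_112089 the nearest genes were Mycth_55717 (0.518), Mycth_104665 (1.01) and Mycth_2313146 (1.11), and its nearest member, Mycth_111088, ranked 11 at a distance of 1.61. These distances rest on 6 libraries in 3 media, so many genes can share such a profile.

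Mycth_46583 was high both on starch and without carbon. It had 98.4 and 102.1 RPKM on starch, 80.0 and 81.0 RPKM without carbon and 12.4 and 14.8 RPKM on glucose. Without carbon it had the highest level of the 10 genes, at 35.1% to 36.4% of the AA9 sum, and on starch it came next to Mycth_112089 at 17.3% to 17.4%. Starch exceeded glucose 6.44-fold (5.89 to 7.04), whereas the difference between starch and no carbon was only 1.28-fold (1.20 to 1.37, adjusted p = 2.36e-09) and fell short of the 2-fold test. With the trend of counts with gene length removed, its log2 fold change between starch and no carbon went from 0.36 to 0.64 (adjusted p = 6.52e-20).

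Mycth_80312 was lowest without carbon and not on glucose. It had 4.16 and 4.34 RPKM there, 16.2 and 18.1 RPKM on glucose and 56.5 and 62.0 RPKM on starch, with no overlap between media. Glucose exceeded no carbon 4.82-fold (95% interval 4.13 to 5.63, adjusted p = 5.39e-24), starch exceeded glucose 2.98-fold (2.71 to 3.28), and starch exceeded no carbon 14.4-fold (12.7 to 16.3). It was the most abundant of the 10 genes on glucose, with 24.9% to 28.4% of the AA9 sum, and next to the least abundant without carbon, with 1.87% to 1.90%.

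Mycth_100518 was the member called lower on starch than without carbon. It had 8.28 and 9.01 RPKM without carbon, 4.02 and 4.60 RPKM on starch, and 0.0715 and 0.237 RPKM on glucose, where only 1 and 4 reads were counted. The read ratio was 44.7 between no carbon and glucose (95% counting interval 18.9 to 139) and 23.1 between starch and glucose (9.65 to 72.2). Its fitted log2 fold changes against glucose depended on the glucose library used. The value of -5.42 for glucose against no carbon was -4.89 without glucose replicate 1, -6.53 without glucose replicate 2 and -4.66 with the length trend removed. The value of 4.47 for starch against glucose was 3.93 and 5.56 without those replicates in turn. Between starch and no carbon the log2 fold change was -0.96 (SE 0.186, adjusted p = 7.64e-06). That call ended when the trend of counts with gene length was removed (log2 fold change -0.27, adjusted p = 0.165), and at 714 bases this is the shortest of the 10 gene models.

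The remaining AA9 genes varied less. Mycth_85556 had 5.76 and 6.18 RPKM on starch, 6.25 and 7.13 RPKM without carbon and 2.95 and 3.20 RPKM on glucose. Starch exceeded glucose 1.69-fold (1.33 to 2.15, adjusted p = 0.000145). Starch and no carbon were not separated by the test (0.924-fold, 95% interval 0.750 to 1.14, adjusted p = 0.463). Glucose lay 1.83-fold below no carbon (1.44 to 2.33), so that this gene was lowest on glucose, and no comparison passed the 2-fold test.

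Mycth_79765 had similar levels throughout, with 10.3 and 11.4 RPKM on starch, 8.48 and 9.78 RPKM on glucose and 7.80 and 9.54 RPKM without carbon. Starch and glucose were not separated (1.03-fold, 95% interval 0.868 to 1.22, adjusted p = 0.789). The small rises over no carbon, 1.30-fold on starch (adjusted p = 0.00431) and 1.27-fold on glucose (adjusted p = 0.0128), were not stable. Their log2 fold changes were 0.38 and 0.34, and with no carbon replicate 1 left out they were 0.22 and 0.18 (adjusted p = 0.159 and 0.255). Without glucose replicate 2 the latter was 0.23, and DESeq2 gave adjusted p = 0.0653 and 0.086. Removal of the length trend instead raised the log2 fold change on starch to 0.67 (adjusted p = 1.24e-06). Over all fits the log2 fold changes ranged from 0.22 to 0.67 on starch and from 0.09 to 0.66 on glucose.

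Mycth_92668 was barely represented, with 5 to 19 reads per library and 0.332 to 1.08 RPKM. No comparison passed the test (adjusted p = 0.179 for starch against glucose, 0.954 for starch against no carbon and 0.174 for glucose against no carbon). The read ratios were 1.70 for starch over glucose (95% counting interval 0.909 to 3.31), 1.02 for starch over no carbon (0.600 to 1.74) and 1.67 for no carbon over glucose (0.876 to 3.29). Differences within these intervals were not detectable at this depth. At 768 bases this gene also moved with the length trend: after its removal the log2 fold change went from 0.03 to 0.63 for starch against no carbon and from -0.73 to -0.05 for glucose against no carbon, still uncalled (adjusted p = 0.169 and 0.927).

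**Figure D2:**
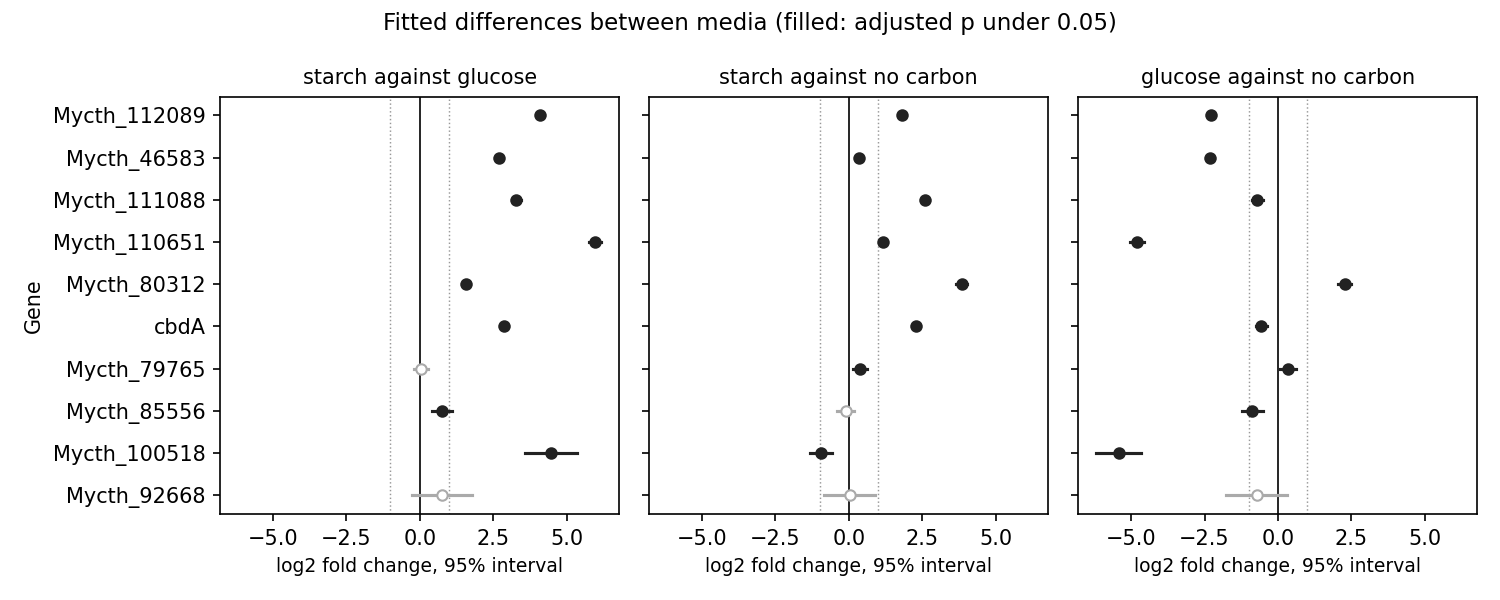
Fitted log2 fold change of each gene in each comparison with its 95% interval, on a common axis, with dotted lines at a 2-fold difference. Filled points passed an adjusted p under 0.05, and Mycth_110651 (5.97) lies farthest right for starch against glucose while Mycth_80312 (2.27) lies apart on the right for glucose against no carbon.

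Counted together, 8 of the 10 genes were higher on starch than on glucose, where 36.1% of all tested genes were, and 2 were not called. The difference exceeded 2-fold for 7 of the 10, where 2.09% of tested genes passed that test. None was called lower by edgeR, DESeq2 or limma-voom, and 0 had an unadjusted p under 0.05 in that direction, where 32.5% of tested genes were called lower and 3.14% by more than 2-fold. The median log2 fold change of the 9 AA9 genes was 2.69, against 0.04 for all tested genes. The background depended on the scaling: 52.6% of all calls in this comparison were higher on starch with TMM factors and 73.9% with library totals alone, which moved the median gene by 0.205.

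Between starch and no carbon, 7 of the 10 genes were higher, 1 was lower and 2 were not called, where 45.3% of tested genes were higher and 44.7% lower. By more than 2-fold, 5 were higher (20.3% of tested genes), namely cbdA, Mycth_112089, Mycth_110651, Mycth_111088 and Mycth_80312. That count was 4 with upper quartile factors and with a filter of at least 10 CPM in 2 libraries. Mycth_110651 had the smallest of these changes, with a log2 fold change of 1.17 as reported and 1.07 and 1.06 in those fits. The median log2 fold change of the AA9 genes was 0.38, against 0.01 for all tested genes.

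In the comparison of glucose with starvation, 7 of the 10 genes were lower on glucose, 2 were higher and 1 was not called, where 45.7% of tested genes were lower and 44.8% higher. By more than 2-fold, 4 were lower (21.4% of tested genes) and 1, Mycth_80312, was higher (21.7%). Those 4 were Mycth_100518, Mycth_110651, Mycth_46583 and Mycth_112089. The smaller falls were those of Mycth_85556, Mycth_111088 and cbdA, at -0.87, -0.70 and -0.57 on the log2 scale. The median of the AA9 genes was -0.87, against -0.02 for all tested genes. The 3 comparisons share libraries, so their counts are not independent of each other.

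**Figure D3:**
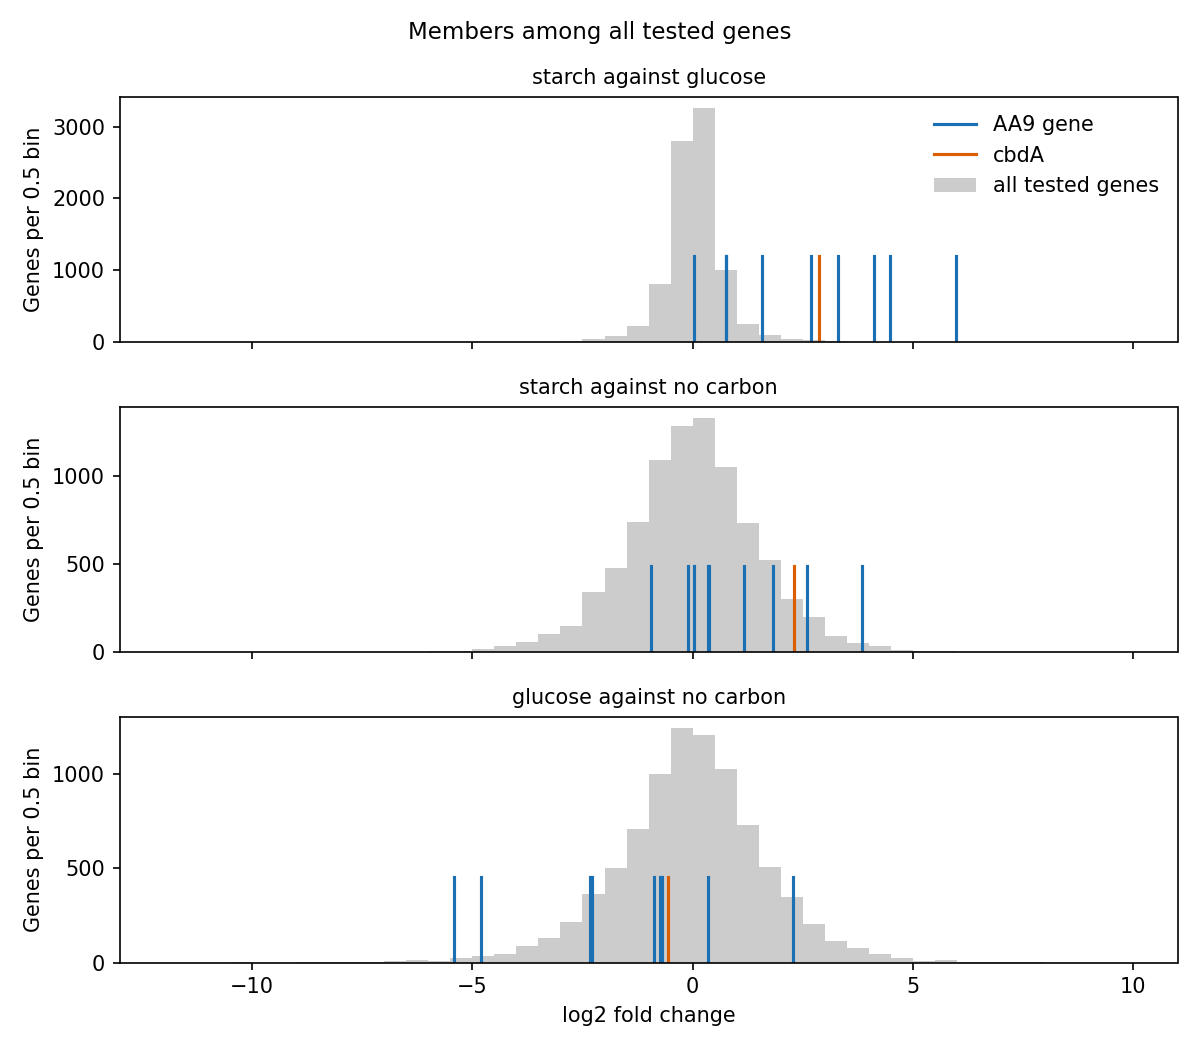
Number of tested genes per bin of log2 fold change (grey, bins 0.5 wide) in each comparison, with blue lines for the AA9 genes and an orange line for cbdA. Most members lie in the right tail for starch against glucose, where the median of all genes was 0.04, and they spread over much of the distribution in the comparisons with no carbon.

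The order of the genes by level changed with the medium. On starch it ran Mycth_112089, Mycth_46583, Mycth_111088, Mycth_110651, Mycth_80312, cbdA, Mycth_79765, Mycth_85556, Mycth_100518 and Mycth_92668, and the replicate ranges of neighbours did not overlap. Without carbon the order began with Mycth_46583, Mycth_112089 and Mycth_110651. There Mycth_79765 and Mycth_100518 were not separated by their replicates, nor were cbdA and Mycth_85556. On glucose Mycth_80312 came first, followed by Mycth_46583 and Mycth_112089, and Mycth_79765 and Mycth_111088 were not separated. Within each library, the highest AA9 level was 227 and 287 times the lowest on starch and 83.8 and 84.8 times without carbon. On glucose it was 76.3 and 227 times, because the lowest gene, Mycth_100518, had 4 reads in the first of these libraries and 1 in the other.

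**Figure D4:**
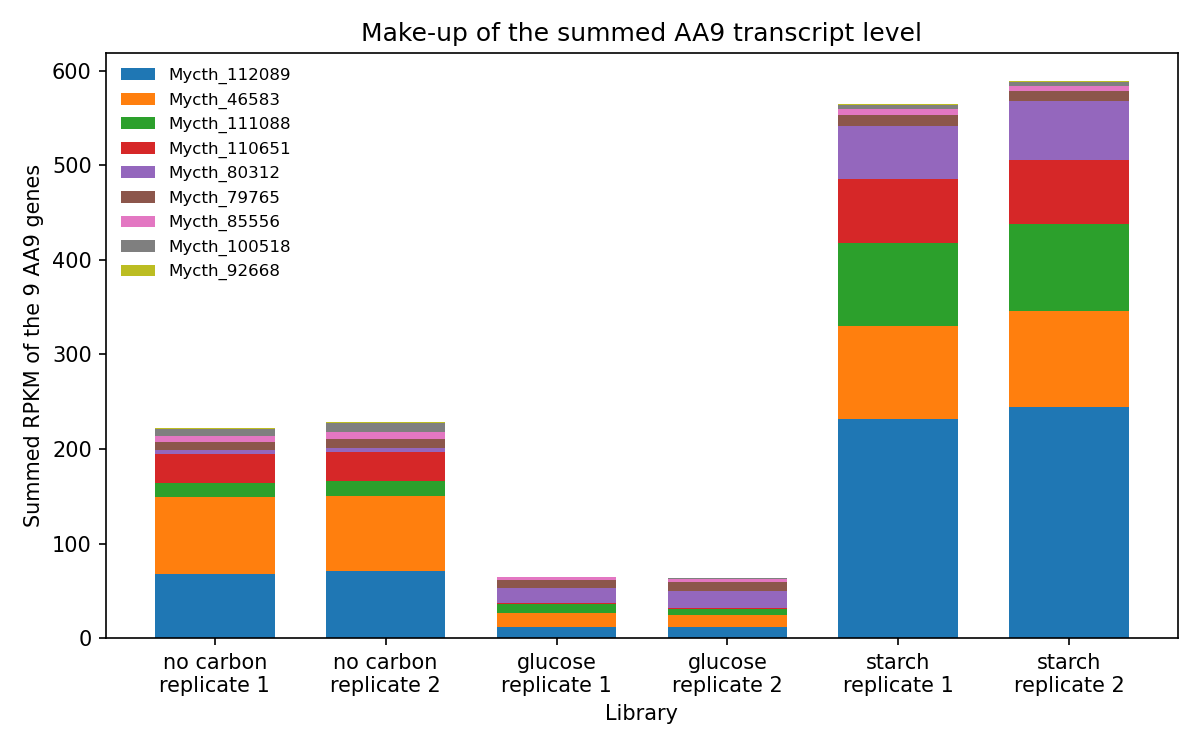
Summed RPKM of the 9 AA9 genes in each library, split by gene from Mycth_112089 at the base to Mycth_92668 at the top. The starch bars reach 564.7 and 589.1 RPKM and the glucose bars 63.8 and 65.2 RPKM, and Mycth_112089 fills 41.1% to 41.5% of each starch bar.

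The 10 genes did not lie side by side. In the gene order of the RefSeq assembly ASM22609v1, 0 pairs of them lay within 3 genes of each other. The closest pairs were Mycth_100518 and Mycth_92668, with 23 genes between them, and cbdA and Mycth_80312, with 31. The build behind the counts is not given in the sources used here, so coordinates are not printed. Of the 54 tested genes within 3 places of a member, 24 (44.4%) were higher on starch than on glucose, against 36.1% of all tested genes, and 3 (5.56%, against 2.09%) were higher by more than 2-fold. Against no carbon, 40.7% of these neighbours were higher and 51.9% lower on starch (45.3% and 44.7% of all tested genes), and 40.7% were higher and 55.6% lower on glucose (44.8% and 45.7%).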

How the data were processed

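For each of the 6 libraries the authors deposited raw read counts and RPKM per gene. TopHat2 2.0.8b and HTSeq 0.5.4p2 are named in the submitters' processing notes. Settings, strand, genome build and annotation are not stated there, so reads of overlapping or near-identical genes may be shared. The deposited RPKM values equalled counts divided by the library total and 1 gene length (100% of 8989 implied lengths whole within 0.001 bases).

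Counts of all genes were fitted in R 4.3.3 with edgeR 4.0.16 (filterByExpr, TMM, robust glmQLFit, glmQLFTest, 3 residual degrees of freedom) over all 6 libraries without covariates, with Benjamini-Hochberg adjustment over the 8718 genes tested. glmTreat tested against a 2-fold difference. Because the spread was estimated with information shared across genes, the F tests and intervals of the members rest on 45.5 total degrees of freedom. SE and the 95% intervals of fitted fold changes were obtained from the F statistic. For large fold changes they can be narrower than counting error alone. Log2 CPM used for profile distances had 2 reads added. Counting intervals (exact Clopper-Pearson, 95%) are given where a group had at most 40 reads and cover counting error only. The fit was tested on simulated counts with known changes.

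The members and lists were chosen with earlier results of these data known. All 10 members are named, with the 3 genes of nearest profile to cbdA and to the AA9 gene with the highest RPKM on starch, and the other genes with a symbol. Of 9110 IDs, 9087 matched the RefSeq table. Lists by protein sequence and a promoter motif search were planned and not run, because no sequences were used here. Alternatives were limma-voom (limma 3.58.1), DESeq2 1.42.0, RLE, upper quartile or no scaling factors, no filter or 10 CPM in 2 libraries, a replicate block, removal of the gene length trend, a non-robust fit, fits to 2 media alone and leaving out each library. TMM scaling of RPKM was added after the data were seen.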

Additional observations from a re-analysis of the deposited data

How the results depend on the processing

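Over 17 alternatives, 492 of 501 fitted member differences kept their direction and side of the threshold or stayed uncalled, 9 lost their call, and no called member changed direction. The losses were those of Mycth_79765 against no carbon and of Mycth_100518 between starch and no carbon. The cause was not tested. Removal of the length trend also moved the fitted shares of cbdA on starch and on glucose relative to its share without carbon, as given above. The count of members higher on glucose than without carbon was 1 in place of 2 with DESeq2, upper quartile factors, library totals alone and the filter of at least 10 CPM in 2 libraries, which left 7 members. It ranged from 1 to 2 when each library was left out. The count lower on starch than without carbon was 0 in place of 1 with the 10 CPM filter, which removed Mycth_100518, and with the length trend removed. All other counts of members stayed within 1.5 times. Of all genes, library totals alone called 4810 up and 1701 down on starch relative to glucose, in place of 3150 and 2834. With TMM factors, a choice made after the data were seen, the AA9 sums were 555.5 on starch, 71.6 on glucose and 210.8 without carbon, in place of 576.9, 64.5 and 225.3 RPKM. The replicate block left 8, 7 and 7 members called higher on starch than on glucose, higher on starch than without carbon and lower on glucose than without carbon, and changed no member's call. Same-numbered libraries did not deviate together (r of -0.04 to 0.01 across genes), so the numbers were not treated as pairs. Depth limits Mycth_92668 in every medium and Mycth_100518 on glucose. The alternatives for lists by protein sequence were not run.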

Other observations

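Apart from cbdA, 5 genes of the table carry a symbol in the RefSeq table. Of these, 3 were higher on starch than on glucose, 1 was lower and 1 was not called. The catalase gene cat1 (Mycth_80916), whose product breaks down hydrogen peroxide, a co-substrate of AA9 enzymes, had 43.1 and 48.3 CPM on starch, 118.8 and 120.5 CPM on glucose and 29.5 CPM in both libraries without carbon. Starch lay below glucose for this gene (adjusted p = 1.3e-28 by edgeR, log2 fold change -1.39 with SE 0.050), the opposite direction to cbdA. Glucose lay above no carbon (log2 fold change 2.02), also opposite to cbdA. Starch lay above no carbon (log2 fold change 0.63, adjusted p = 2.65e-13 by edgeR), the same direction as cbdA. The galactanase gene ganA (Mycth_43163) had 19.7 and 21.0 CPM on starch, 4.74 and 4.88 CPM on glucose and 8.62 and 8.72 CPM without carbon, the same order of media as cbdA. The glucoamylase gene gla1 (Mycth_72393), which acts on starch itself, had 2434 and 2521 CPM on starch, 49.8 and 53.5 CPM on glucose and 7.55 and 8.89 CPM without carbon. As for Mycth_80312, its level was lowest without carbon. The phytase gene phy1 (Mycth_104551) had 79.8 and 80.7 CPM on starch, 56.1 and 59.8 CPM on glucose and 1.79 and 3.19 CPM without carbon. The laccase gene lcc1 (Mycth_51627) had 0.299 and 0.419 CPM on starch, 0.227 and 0.235 CPM on glucose and 1.38 and 1.62 CPM without carbon. It was the gene not called between starch and glucose (adjusted p = 0.411), and it was lower than without carbon both on starch (log2 fold change -2.05, adjusted p = 1.44e-05) and on glucose (-2.68, adjusted p = 2.18e-06).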
